A study of Mus musculus with 53 samples.

Results

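Mouse dorsal skin at embryonic day (E) 16.5 was compared with dorsal skin at E14.5, over the interval in which the epidermis of this species stratifies and begins to form its barrier. The comparison was defined by the sample labels alone. It took the 3 arrays labelled E16.5 dorsal skin and the 3 arrays labelled E14.5 dorsal skin from the series' table of Affymetrix Mouse Genome 430 arrays, 6 of the 53 samples of a survey of mouse epithelial organs. All 6 came from wildtype CB6 mice, from total RNA of whole dorsal skin, with no treatment. The titles of E14.5 arrays 1 and 2 hold the same identifier and name only skin, where those of the other 4 name wildtype dorsal skin; the tissue and genotype labels are the same for all 6. The labels do not say whether any of the 6 arrays came from separate litters or pooled embryos, so the spread between arrays of an age may be technical. The p-values below rest on the spread between arrays pooled over all groups of the table, not over these 6 alone. The table holds 26 arrays in 9 groups; the others are dorsal skin at E18.5, urinary bladder at E14.5 and E16.5, urinary bladder of Get1 +/- mice at E18.5, and esophagus, stomach and small intestine at E18.5. The Get1 +/- arrays, heterozygous for Get1 (Grhl3), enter the fit and the ranges over bladder arrays below, but no comparison.

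The epidermis starts as a single layer of keratinocytes under a transient cover, the periderm. Basal keratinocytes attached to the basement membrane then give rise to spinous cells, granular cells and finally cornified cells, whose cross-linked protein envelope and surrounding lipids seal the body surface before birth. Hair follicles grow from placodes that signal to condensates in the dermis over the same days, while the dermis fills with matrix and the thin skin muscle below it matures. Whole skin mixes these tissues, so fewer cells of a type and less RNA per cell cannot be told apart in any result here.

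The levels are log2(intensity + 16) after quantile normalization over the 26 arrays, on a scale whose floor is 4, and each gene was read from its brightest probe set. A gene was called when its Benjamini-Hochberg adjusted p in limma was under 0.05, it differed at least 2-fold, and its second-brightest probe set had a change of the same sign. A gene with a single probe set could not be checked in that way and is marked "single" where it is named. Of 18194 genes, 2747 were called higher at E16.5 (15.1%) and 3187 lower (17.5%), 3321 of them on a single probe set. Such large shares are the background against which each group of genes below is read, and on 75.8% of all genes the 3 arrays of one age did not overlap the 3 of the other.

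The 26 arrays fell into 2 sets that follow no group of the study's labels, and the 2 skin ages lie on opposite sides. The E14.5 skin arrays fell with those of bladder, esophagus and stomach, 17 in all, and the E16.5 skin arrays with those of E18.5 skin and small intestine, 9 in all. The 18S ribosomal RNA control probe set read 1022.1 to 5612.4 intensity units as deposited in the first set and 6.9 to 36.3 in the second. The log2 ratio of the 5′ to the 3′ Gapdh control probe set ran from -3.74 to -1.13 in the first set and from -0.31 to 0.06 in the second. E14.5 skin arrays correlated with E16.5 skin arrays at 0.731 to 0.772 across genes, but with bladder, esophagus and stomach arrays at 0.893 to 0.925. The labels give both sets the same extraction and labelling protocol. Age and array set therefore cannot be told apart in this comparison.

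**Figure D1:**
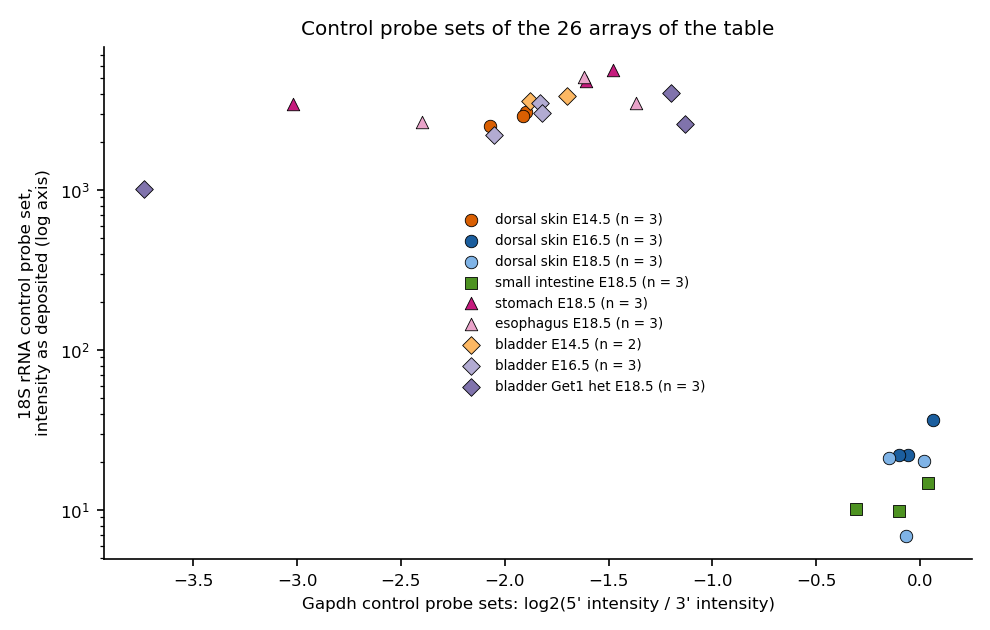
Control probe sets on the 26 arrays of the table: horizontal axis, log2 ratio of the 5′ to the 3′ Gapdh control probe set; vertical axis (log), deposited intensity of the 18S ribosomal RNA control probe set; 1 symbol per array, coloured by group. E14.5 dorsal skin lies among the 17 arrays at the upper left, and E16.5 dorsal skin among the 9 arrays at the lower right.

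The same division separates organs sampled at a single age. Small intestine (second set) differed from the mean of stomach and esophagus (first set), all at E18.5, by 8490 genes past the p and fold thresholds (46.7%). That difference correlated across genes with the skin change at 0.71, whereas the bladder change between those ages, whose arrays are all of the first set, correlated with it at 0.04. Genes are not independent replicates, and these values describe the arrays. The second-brightest probe set moved with the brightest in 57.6% of the skin genes past both thresholds that had 2 or more probe sets, against 55.2% of all genes with 2 or more, so 1922 of them were not called. Complement C1q shows what this means for single genes, in its subunits C1qa and C1qb. A further subunit, C1qc, was measured and not called. C1qb was called lower by 4.67 (log2, standard error, SE, 0.23) and C1qa (single) was called higher by 3.22 (SE 0.28), while small intestine differed from stomach and esophagus by -4.37 in C1qb and 3.28 in C1qa. The share of this division in each result was not tested. Below, counts of the gene groups are therefore given also after this small intestine difference was subtracted from the skin change, which left 1241 genes called higher (6.82%) and 1449 lower (7.96%). The subtraction also removes true differences between these organs, and it adds to the skin change of a gene that stomach and esophagus express, such as Krt5, so its values are no corrected fold changes.

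**Figure D2:**
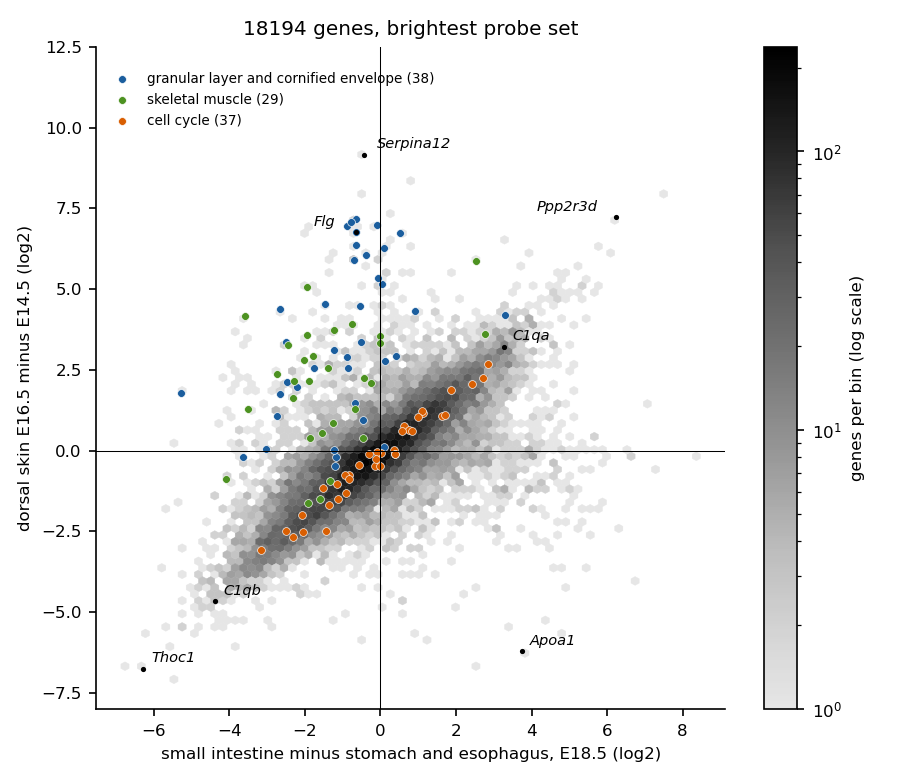
Difference between small intestine and the mean of stomach and esophagus at E18.5 (horizontal axis, log2) against the difference between E16.5 and E14.5 dorsal skin (vertical axis, log2) for 18194 genes, shaded by genes per bin, with 3 gene lists and 7 single genes marked. Cell cycle genes lie along the diagonal that runs from Thoc1 and C1qb to C1qa and Ppp2r3d, whereas most granular layer and skeletal muscle genes lie above it.

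E14.5 arrays 1 and 2 also differed from E14.5 array 3. They held high levels of genes of liver, gut and visceral yolk sac. Apoa1, an apolipoprotein of liver and gut, read 13.06 and 13.05 on arrays 1 and 2, 5.38 on array 3 and 4.19 to 4.49 on the E16.5 arrays. Of 20 such genes listed after these arrays had been seen, 18 were called lower at E16.5 and 0 without arrays 1 and 2, with adjusted p in limma in both cases. The fit without those arrays called 2571 genes higher (14.1%) and 3072 lower (16.9%), with 1 array left at E14.5, which was taken to vary like the other groups. Small intestine array 3 read 12.53 for Krt5, a basal keratin of stratified epithelia, against 4.14 and 4.45 on the other 2 arrays of its group. It widened the spread that all groups share for epidermal genes, so a fit without the small intestine is also given, which called 2791 genes higher (15.3%) and 3232 lower (17.8%). Without both the small intestine and E14.5 arrays 1 and 2, 2699 genes were higher (14.8%) and 3172 lower (17.4%).

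**Figure D3:**
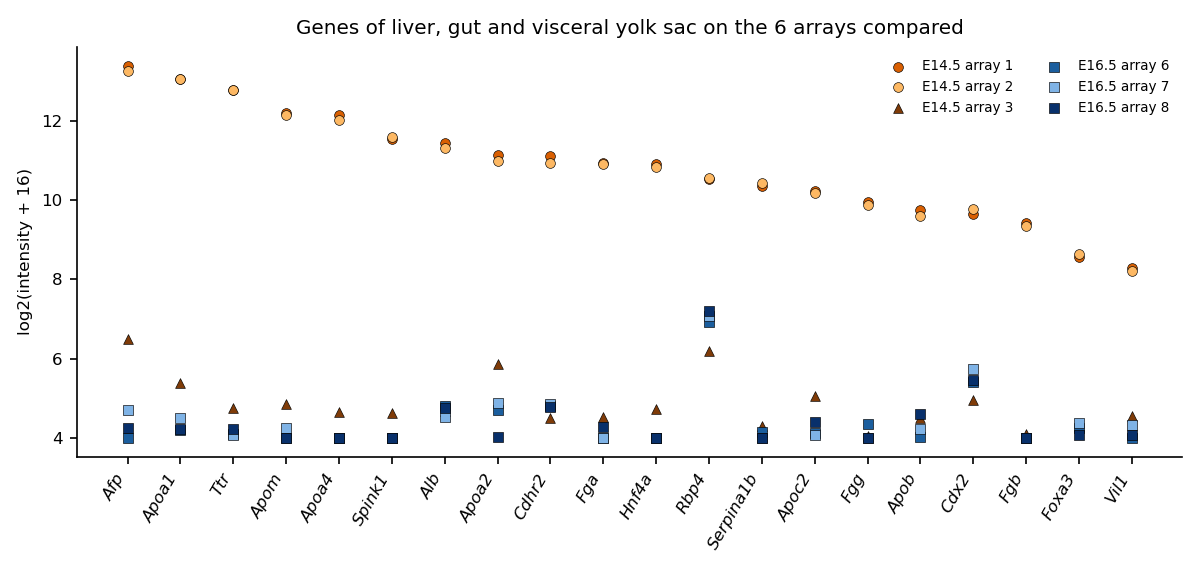
Levels, log2(intensity + 16), of 20 genes of liver, gut and visceral yolk sac on the 6 arrays compared (1 symbol per array). E14.5 arrays 1 and 2 lie above E14.5 array 3 and the 3 E16.5 arrays for all 20 genes; Apoa1 is at 13.06 and 13.05 on those 2 arrays and at 5.38 on array 3.

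Genes of the periderm were lower at E16.5. Of 6 measured, 4 were called lower and 0 higher, with a median change of -3.24 against -0.18 over all genes, and 4 were called lower after the subtraction. Krt18 (single), a simple-epithelium keratin of the periderm, read 11.04, 10.97 and 8.43 at E14.5 and 5.46, 5.24 and 5.81 at E16.5. Its partner keratin Krt8 read 11.05, 10.97 and 8.96 at E14.5 and 6.30, 6.56 and 6.57 at E16.5. Arrays 1 and 2 were the highest for both keratins, and no array of one age overlapped the other. The decrease was 4.64 for Krt18 (SE 0.49, adjusted p 3.49e-08) and 3.85 for Krt8 (SE 0.43, adjusted p 7.95e-08), and without arrays 1 and 2 it was 2.92 and 2.48, both still called. Krt19 (single), which marks periderm and other simple epithelia, did not share that dependence. It read 9.76, 9.75 and 9.72 at E14.5 and 6.24, 6.53 and 6.37 at E16.5, a decrease of 3.36 (SE 0.28, adjusted p 8.43e-10). Cldn6 (single), a claudin of embryonic epithelia, read 8.69 and 8.78 on arrays 1 and 2 but 5.82 on array 3, and 4.49 to 4.82 at E16.5. Krt6a changed by -0.70 and was not called, and the probe sets of Krt17 disagreed. Krt8 and Krt18 are also keratins of gut and liver, whose genes arrays 1 and 2 held; the part of those arrays in the other decreases was not tested beyond these values.

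Basal keratinocyte genes were higher or not called. Of 13 measured, 5 were called higher and 0 lower, 6 and 1 after the subtraction, and 4 had probe sets that disagreed, among them Trp63, the transcription factor of stratified epithelia. Col17a1 (single), the transmembrane collagen of hemidesmosomes, read 6.25, 6.46 and 6.62 at E14.5 and 10.17, 10.29 and 10.31 at E16.5, an increase of 3.81 (SE 0.69, adjusted p 5.73e-05). Cdh3, P-cadherin of basal and placode cells, read 8.41 to 8.53 at E14.5 and 11.76 to 12.02 at E16.5, and Lama3, a chain of laminin-332, rose by 1.72 (SE 0.31) with a second probe set that moved by 0.16; without E14.5 array 1 its change was 1.52 and its probe sets disagreed. Itgb4 (single), the hemidesmosomal integrin, rose by 2.83 (SE 0.25), but small intestine exceeded stomach and esophagus by 2.91 in it and the subtracted value was -0.09. The basal keratins were high at both ages. Krt5 (single) read 11.57, 11.29 and 11.96 at E14.5 and 13.63, 13.68 and 13.73 at E16.5, a difference of 2.08 (SE 1.27, adjusted p 0.159) that was not called. Krt14 differed by 1.27 (SE 0.80, adjusted p 0.175) and Krt15 (single) by 2.23 (SE 1.12, adjusted p 0.0871). Without the small intestine arrays all 3 were called, with adjusted p of 6.7e-05 for Krt5, 0.00604 for Krt14 and 2.61e-06 for Krt15, and 8 of the 13 basal genes were called higher.

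The spinous layer keratins Krt1 and Krt10 were high by E14.5, and some other spinous genes were called higher at E16.5. Of 13 measured spinous genes, 6 were called higher and 0 lower, with a median change of 1.52; 9 were called higher without the small intestine, 3 without E14.5 arrays 1 and 2, 8 without both, and 7 after the subtraction. Krt1 (single) read 11.49, 11.60 and 12.01 at E14.5 and 12.53, 12.60 and 12.49 at E16.5, a difference of 0.84 (SE 1.1, adjusted p 0.521). Its partner Krt10 (single) read 11.48, 11.47 and 12.01 at E14.5 and 13.21, 13.16 and 13.00 at E16.5, a difference of 1.47 (SE 0.91, adjusted p 0.163). Neither keratin was called, although the arrays of the 2 ages did not overlap. Their SE come from the spread shared by all groups, which small intestine array 3 widened for epidermal genes. The lack of a call is therefore no sign that they did not change. Dsc1, the desmosomal cadherin of differentiated keratinocytes, read 6.81, 6.97 and 6.90 at E14.5 and 14.89 on all 3 E16.5 arrays, where its rank was the same. It rose by 7.99 (SE 0.98, adjusted p 3.43e-07), and its second probe set by 1.29. The E14.5 skin level of Dsc1 lay close to that of bladder at E14.5, 7.17, and of esophagus, 6.94, and small intestine arrays 1 and 2 read 4.38 and 4.31. Krt77 (single), a suprabasal keratin of embryonic skin, read 10.02, 9.68 and 10.08 at E14.5, 13.36, 13.42 and 13.37 at E16.5 and a mean of 7.62 at E18.5. Calml3 and Lypd3 (both single), a calmodulin-like protein and a surface protein of differentiating keratinocytes, rose by 3.58 (SE 0.94) and 3.68 (SE 0.96); without E14.5 arrays 1 and 2 Calml3 was at 3.34 and not called (adjusted p 0.0522), and without the small intestine as well it was called at the same change (adjusted p 1.12e-07).

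**Figure D4:**
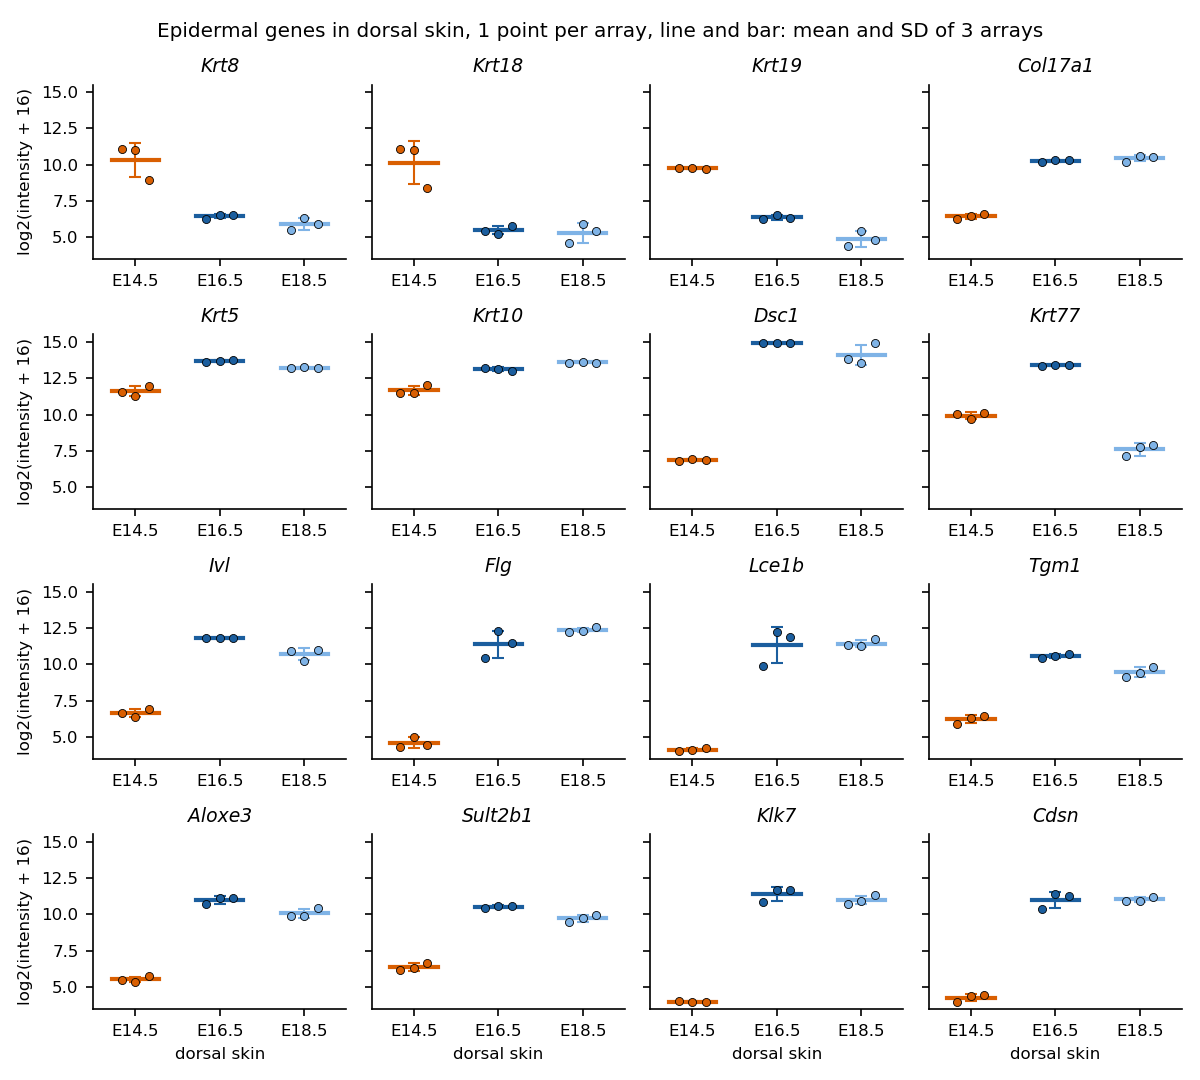
Levels of 16 epidermal genes on the dorsal skin arrays of the 3 ages, log2(intensity + 16); points are arrays, lines are means and bars are the SD of 3 arrays. Flg, Lce1b, Klk7 and Cdsn lie between 4.00 and 5.05 at E14.5 and between 9.93 and 12.30 at E16.5, whereas Krt5 and Krt10 are already at 11.29 or more at E14.5.

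Most granular layer and cornified envelope genes were called higher. Of 38 measured, 27 were called higher and 0 lower, with a median change of 3.24, against the 15.1% of all genes called higher. The count was 31 without the small intestine, 22 without E14.5 arrays 1 and 2, 29 without both, and 27 after the subtraction. Of the 38, 30 have a single probe set, so for most of them the second-probe-set condition had nothing to check, and neighbouring genes of the late cornified envelope (Lce) and Sprr families are similar enough in sequence to share signal. Flg (single) encodes profilaggrin, whose product packs keratin filaments in the outer epidermis. It read 4.35, 5.05 and 4.46 at E14.5 and 10.42, 12.30 and 11.44 at E16.5, an increase of 6.77 (SE 1.03, adjusted p 6.32e-06). Ivl encodes involucrin, an early scaffold of the envelope. It read 6.66, 6.36 and 6.94 at E14.5 and 11.80, 11.84 and 11.84 at E16.5, an increase of 5.17 (SE 0.37, adjusted p 8.15e-11) that its second probe set shared at 4.00. Tgm1 (single), the transglutaminase that cross-links the envelope, rose by 4.33 (SE 0.67, adjusted p 8.68e-06) from 5.93, 6.35 and 6.46 to 10.43, 10.61 and 10.69.

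Lce1 genes were among the largest changes of the list, from readings close to the floor at E14.5, while Lce3a and Lce3b were not called. Lce1b (single) read 4.04, 4.16 and 4.29 at E14.5 and 9.93, 12.22 and 11.86 at E16.5. Array 6 was the lowest of the E16.5 arrays for Lce1b, Lce1m, Lce1i, Lce1c and Flg, and still above every E14.5 array. Lce1b, Lce1m, Lce1i and Lce1c (all single) rose by 7.17, 7.07, 7.00 and 6.96, with SE of 0.69, 0.47, 0.82 and 0.86. Changes from the floor depend on the pseudocount, and Lce1b was at 9.95 with a pseudocount of 1 and 5.33 with one of 64. Cdsn (single), corneodesmosin of the cornified cell junctions, rose by 6.73 (SE 0.83) from 4.00, 4.38 and 4.48 to 10.39, 11.37 and 11.28. Kprp (single), a keratinocyte proline-rich protein, rose by 6.27. Not called were 11 of the 38: the probe sets of Lor, the gene of loricrin, disagreed; Lce3a, Lce3b, Sprr1a, Krt2 and Scel changed by between -0.48 and 0.12; and Sprr2d, Sprr3, Tgm3, Csta1 and Rptn changed by 0.95 to 1.97. The last 4 of these were called without the small intestine.

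Arrays of both sets read these genes low in organs that lack a cornified layer. Of the 27 cornified envelope genes called higher, 23 (85.2%) were under 6 in bladder at E14.5 (first set) and on small intestine arrays 1 and 2 (second set), against 21% of all genes called higher, but 31 of all 38 on the list (81.6%), called or not, were as low. Flg read 4.29 in bladder at E14.5, 4.66 in esophagus, and 4.49 and 5.07 on small intestine arrays 1 and 2. Small intestine array 3, not part of these counts, read 11.21 for Flg and 8.55 for Lce1b. Stomach, on first-set arrays, read 10.49 for Flg and 9.59 for Lce1b. Of the 27 genes, 17 read above 8 in stomach or esophagus. The levels were held at E18.5 in skin, with means of 12.36 for Flg and 11.44 for Lce1b.

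The promoters of Flg and Ivl, and of Lce1b for comparison, are shown as examples of the list, picked after their values were seen, with a large filament protein, an early scaffold and a late envelope gene. Each line gives the 250 bases before the transcription start, 5′ to 3′ on the gene's strand, from RefSeq on GRCm38.p6. Each match to TGANTCA, a loose form of the AP-1 motif with any base at N, is in capitals. Flg lies at chr3:93273296-93273545 on the plus strand, Ivl at chr3:92573736-92573985 and Lce1b at chr3:92656927-92657176 on the minus strand, within the epidermal differentiation gene cluster of chromosome 3.
Flg: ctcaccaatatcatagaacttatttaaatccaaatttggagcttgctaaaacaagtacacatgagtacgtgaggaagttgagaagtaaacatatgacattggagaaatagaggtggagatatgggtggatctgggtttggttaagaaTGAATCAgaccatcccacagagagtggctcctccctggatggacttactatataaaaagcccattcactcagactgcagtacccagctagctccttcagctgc
Ivl: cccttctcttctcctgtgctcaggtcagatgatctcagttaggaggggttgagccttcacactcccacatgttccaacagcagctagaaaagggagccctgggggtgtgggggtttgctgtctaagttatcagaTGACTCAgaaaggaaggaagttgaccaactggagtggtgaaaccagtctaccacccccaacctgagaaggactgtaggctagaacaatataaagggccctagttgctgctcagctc
Lce1b: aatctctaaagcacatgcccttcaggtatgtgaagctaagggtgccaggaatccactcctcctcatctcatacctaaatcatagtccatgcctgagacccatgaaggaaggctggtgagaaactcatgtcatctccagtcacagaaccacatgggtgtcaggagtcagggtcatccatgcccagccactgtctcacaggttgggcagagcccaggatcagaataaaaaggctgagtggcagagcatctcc
Flg held 1 match, TGAATCA, which started 103 bases before the start, Ivl held 1, TGACTCA, at 116 bases, and Lce1b held none. In windows from 250 bases before to 50 after the start, on both strands, TGANTCA was found in 7.81% of all 32851 RefSeq promoters, in 6.39% of the promoters of genes called higher and in 5.2% of those of genes called lower. Of the 27 called cornified envelope genes, 20 matched the promoter table, with 22 promoters, and 4 of these held TGANTCA (18.2%). The grainyhead-like motif AACNGGTT, which includes AACCGGTT, was in 2.09% of all promoters, 1.66% of those of genes called higher and 0 of the 22. The AP-2 motif GCCNNNGGC was in 16.6% of all promoters and 24.1% and 23.8% of those of genes called higher and lower, and the Klf motif CACCC in 57.5%, 65.6% and 61.9%. Among the 22 promoters, GCCNNNGGC was in 9.09% and CACCC in 59.1%. These matches describe letters in the windows and carry no test.

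Enzymes that make the barrier lipids were mostly higher. Of 20 measured, 12 were called higher and 1 lower, with a median change of 1.26; without E14.5 arrays 1 and 2 the counts were 9 and 0, without the small intestine as well 10 and 2, and after the subtraction 8 and 1. Aloxe3 and Alox12b (both single), the lipoxygenases that act in turn on the linoleate of barrier ceramides, rose by 5.44 (SE 0.73, adjusted p 1.15e-06) and 4.06 (SE 0.90, adjusted p 4.72e-04). Aloxe3 read 5.49, 5.35 and 5.75 at E14.5 and 10.68, 11.12 and 11.12 at E16.5. Sult2b1 (single), the cholesterol sulfotransferase, read 6.19, 6.34 and 6.70 at E14.5 and 10.42, 10.60 and 10.59 at E16.5, an increase of 4.13 (SE 0.38, adjusted p 4.44e-09). Smpd1, acid sphingomyelinase, rose by 3.08 (SE 0.66) and its second probe set by 2.13. Abca12 (single), the lipid transporter of lamellar granules, rose by 2.33. Slc27a4 (single), a fatty acid transporter, rose by 2.65 but was at -0.97 after the subtraction. Degs2 (single), a sphingolipid hydroxylase, was the member called lower, by 1.54, and was at -1.02 without E14.5 arrays 1 and 2, called only where the small intestine was also left out. Cers3 (single), a ceramide synthase, changed by 0.32 and was not called, and the probe sets of Ugcg and Elovl4 disagreed. Cholesterol synthesis genes showed no common direction, with 5 of 18 called higher and 5 lower, and 1 and 4 after the subtraction. Insig1 (single), the sterol-regulated inhibitor of that pathway, fell by 5.32 (SE 0.25) and by 3.98 after the subtraction. Fdps, farnesyl diphosphate synthase, rose by 3.40 (SE 0.23), and small intestine exceeded stomach and esophagus in it by 3.78.

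Proteases that shed cornified cells and their inhibitors were higher, 14 of 22 measured with 0 lower and a median change of 1.99; 10 were called higher without E14.5 arrays 1 and 2, 15 without the small intestine as well, and 14 higher and 1 lower after the subtraction. Klk7 (single), the chymotrypsin-like kallikrein of the cornified layer, read 4.04, 4.00 and 4.00 at E14.5, at the floor, and 10.87, 11.66 and 11.65 at E16.5. It rose by 7.38 (SE 0.51, adjusted p 5.55e-11) on this scale, and by 11.22 with a pseudocount of 1 and 5.41 with one of 64, so the size of the change is not fixed by these readings. Klk5 and Klk8 (both single), trypsin-like kallikreins of the same cascade, rose by 4.81 (SE 0.66) and 4.01 (SE 0.61). Their inhibitor Spink5 (single) rose by 2.48, and Serpinb12, an intracellular serpin, by 4.04 (SE 1.04); without E14.5 arrays 1 and 2 they were at 1.73 and 3.65, and neither was called. Without the small intestine as well Serpinb12 was called (adjusted p 4.84e-06) and Spink5 was not (adjusted p 0.0675), and Spink5 was also lost without array 1 (adjusted p 0.0529) or array 2 (adjusted p 0.0691) alone. Klk6 (single) changed by 0.16 and was not called.

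Transcription factors of the epidermis moved in both directions. Of 25 measured, 10 were called higher, 3 lower, and 6 had probe sets that disagreed; after the subtraction 14 were higher and 2 lower. Cebpb, a factor of suprabasal differentiation, read 9.73, 10.24 and 10.02 at E14.5 and 14.71, 15.31 and 15.31 at E16.5, an increase of 5.11 (SE 0.26) that its second probe set matched at 5.07. Small intestine exceeded stomach and esophagus in Cebpb by 3.61, and the subtracted change was 1.5. Klf5, a factor of proliferating epithelia, rose by 4.25 (SE 0.19), with a small intestine difference of 3.74 and a subtracted change of 0.51. Pou2f3 and Hopx, both linked to late keratinocyte differentiation, were also called higher. Pou2f3 (single) rose by 3.93 (SE 0.26), with 2.78 after the subtraction, and Hopx by 3.92 (SE 0.54), with 3.49. Grhl3 (single), the grainyhead-like factor required for the barrier, read 8.27, 8.51 and 8.70 at E14.5 and 10.99, 11.26 and 11.44 at E16.5, an increase of 2.74 (SE 0.88, adjusted p 0.0102). Klf4, a barrier factor of the granular layer, rose by 1.37 (SE 0.48, adjusted p 0.0168). Without E14.5 arrays 1 and 2 they were at 2.53 and 1.35 and not called, and without the small intestine as well both were called at those changes. Ehf, an Ets factor of epithelia, differed by 0.12 (SE 0.34, adjusted p 0.777). The called decreases were of Tfap2c, Maf and Grhl2, by 3.5, 2.84 and 2.79, and after the subtraction Tfap2c and Grhl2 were at 1.34 and 0.83.

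Junction genes split. Among 12 desmosome genes 3 were called higher and 4 lower, and 6 and 3 after the subtraction. Opposite to Dsc1, Dsc2, the widespread desmocollin, read 10.60, 10.60 and 10.75 at E14.5 and 5.45, 5.54 and 5.28 at E16.5. It fell by 5.22 (SE 0.25), while its second probe set moved by -0.43, and small intestine differed from stomach and esophagus by -3.57. Dsg2, the desmoglein of simple and basal epithelia, fell by 3.37 (SE 0.23), and by 1.88 after the subtraction. Dsg1b (single), another desmoglein, read 9.53, 9.60 and 9.97 at E14.5 and 5.97, 6.31 and 5.98 at E16.5. Its decrease was 3.61 (SE 0.33), and after the subtraction it was at -0.185 and not called. Among 14 tight junction genes 1 was called higher and 5 lower, and 2 and 3 after the subtraction. Cldn4 (single), a claudin of granular cells, rose by 4.02 (SE 0.47) from 6.24, 6.03 and 6.06 to 9.99, 10.15 and 10.25. Cldn7 (single), another claudin of simple epithelia, read 8.73 and 8.68 on E14.5 arrays 1 and 2 and 6.18 on array 3. Its decrease of 2.71 became 1.02 without arrays 1 and 2, called only where the small intestine was also left out.

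Placode, germ and dermal condensate genes were called about as often as all genes and in both directions. Genes of hair shaft and root sheath were called less often. Of 20 placode and germ genes, 4 were called higher and 4 lower, with a median change of -0.55, and 5 and 2 after the subtraction. Lhx2 (single), a factor of follicle progenitors, read 4.46, 4.38 and 5.19 at E14.5, 7.96, 8.16 and 7.83 at E16.5 and a mean of 10.05 at E18.5. It rose by 3.31 (SE 0.23, adjusted p 5.4e-11) and its group means were 4.03 to 4.32 in bladder, esophagus, stomach and small intestine. Gli1 (single), a target of hedgehog signalling, rose by 2.91 (SE 0.18), with a small intestine difference of 2.30. Edar, the ectodysplasin receptor of placodes, read 8.49, 8.43 and 8.85 at E14.5 and 5.74, 5.55 and 5.71 at E16.5. It fell by 2.92 (SE 0.22), but its second probe set moved by -0.05. Shh, the placode signal, differed by 0.54 (SE 0.58, adjusted p 0.435), and the probe sets of Lef1, a Wnt effector, disagreed. Among 14 dermal condensate genes, 3 were called higher and 2 lower, and 5 and 1 after the subtraction. Sox18 (single), a factor of condensates and also of vessels, rose by 4.36 (SE 0.31), with 1.23 after the subtraction. Crabp1 (single), a retinoic acid binding protein of the papilla, fell by 1.76 (SE 0.27), and Cxcr4 (single), a chemokine receptor of condensates, by 3.01 (SE 0.29), which was 0.25 after the subtraction. Of 19 genes of hair shaft and root sheath, all with a single probe set, 1 was called in each direction, and 2 higher and 0 lower after the subtraction.

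Of 30 Wnt pathway genes, 5 were called higher and 6 lower, and 4 in each direction after the subtraction. Wnt7b, an epidermal ligand, read 5.66, 5.30 and 5.64 at E14.5 and 9.57, 9.69 and 9.65 at E16.5, an increase of 4.10 (SE 0.38) that its second probe set shared at 3.33 and that was 2.47 after the subtraction. Wnt3 (single), an epidermal and follicular ligand, fell by 3.73 (SE 0.18) from 8.02, 8.64 and 8.92 to 4.73, 4.70 and 4.94. Its small intestine difference of -0.10 lay between readings near the floor, 4.15 in small intestine, 4.17 in stomach and 4.35 in esophagus. For Wnt3 that difference therefore says nothing about the array sets. Sfrp1, a secreted antagonist, fell by 2.22 (SE 0.21) on concordant probe sets, with 2.70 after the subtraction. Notch pathway genes, which drive spinous commitment, gave 3 higher and 3 lower of 16, and 0 and 1 after the subtraction. Hes1 (single), a Notch target, rose by 3.43 (SE 0.20) and by 0.65 after the subtraction, the ligand Jag1 fell by 2.95 (SE 0.18) and by 1.02, and the changes of the ligand Dll4 (3.84) and the target Hey2 (single, -3.57) became -0.70 and 0.05.

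Genes of the dermal matrix were mostly higher or not called. Of 33 collagen and matrix genes, 13 were called higher and 1 lower, with a median change of 0.84, and 12 and 0 after the subtraction; the probe sets of 13 disagreed, among them Col1a1 and Col3a1. Mfap2, a microfibril protein, read 8.19, 7.94 and 8.00 at E14.5 and 11.57, 11.53 and 11.55 at E16.5, an increase of 3.5 (SE 0.27) with a subtracted value of 1.23. Tnxb (single), tenascin-X of connective tissue, rose by 3.45 (SE 0.35), and by 1.5 after the subtraction. Fbln1, a basement membrane and elastic fibre protein, rose by 3.32 (SE 0.18), but its second probe set by 0.14 and the subtracted value was 0.14. Lum (single), a proteoglycan of collagen fibrils, rose by 2.93 and Postn (single), periostin, by 1.48. Fmod, fibromodulin, was the decrease, by 3.41 (SE 0.37), and by 0.80 after the subtraction. Col7a1 (single), the anchoring fibril collagen, rose by 3.58 (SE 0.30), and 4 of 16 basement membrane genes were called higher with 0 lower, and 2 with 0 after the subtraction. Of 14 dermal fibroblast regulators, 1 was called higher and 5 lower, but 4 and 1 after the subtraction. Twist1 (single) read 11.31, 11.27 and 11.25 at E14.5 and 8.81, 8.75 and 8.83 at E16.5. It fell by 2.48 (SE 0.29) and Twist2 (single), its dermal relative, by 2.35 (SE 0.19). After the subtraction both were called in the opposite direction, at 1.51 and 1.21.

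Skeletal muscle genes were higher in the same direction as the outer epidermis. Of 29 measured, 21 were called higher and 1 lower, with a median change of 2.25, and 18 and 2 without E14.5 arrays 1 and 2; after the subtraction 23 were higher and 0 lower. Ckm, muscle creatine kinase, read 6.46, 5.85 and 6.46 at E14.5 and 12.02, 12.17 and 12.22 at E16.5, an increase of 5.88 (SE 0.33, adjusted p 2.33e-12). Myh8 (single), the perinatal myosin heavy chain, read 6.91, 6.84 and 7.36 at E14.5, 12.04, 12.19 and 12.12 at E16.5 and a mean of 13.13 at E18.5. It rose by 5.08 (SE 0.28). Ttn, titin, rose by 4.17 (SE 0.37) on 2 concordant probe sets, and Atp2a1 (single), the calcium pump of fast muscle, by 3.91 (SE 0.32). Myf5, Myod1, Myog and Pax7, genes of muscle transcription factors, did not follow. Myf5 (single) was called lower, by 1.62, Myod1 and Myog (single) changed by -0.93 and -0.87 without being called, and the probe sets of Pax7 disagreed. After the subtraction Myf5 was at 0.29 and Myog was called higher, at 3.22, against its skin change of -0.87. Small intestine was called lower than stomach and esophagus in 17 of the 29 muscle genes and higher in 1. The subtraction adds to the skin change of those 17, so the muscle count after it is no check on the count before. Bladder, within a single array set, had 6 of the 29 called higher between the same ages and 0 lower, where 0.209% of all genes were called higher.

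Other cell types in the skin were covered by shorter lists. Of 13 melanocyte genes, 5 were called higher and 2 lower, and 3 and 0 after the subtraction. Mlana (single), a melanosome protein, read 5.65, 4.83 and 5.48 at E14.5 and 9.69, 10.39 and 10.36 at E16.5, an increase of 4.82 (SE 0.67). Kit, the receptor of melanoblasts and mast cells, rose by 2.97 (SE 0.29), and its second probe set by 2.99. Tyrp1, a melanin enzyme, read 4.05 on E16.5 array 6 but 10.90 and 11.34 on arrays 7 and 8, against 4.85 to 5.13 at E14.5, so its ages overlapped, and it was not called without E14.5 array 2 (adjusted p 0.0524), E16.5 array 7 (adjusted p 0.131) or array 8 (adjusted p 0.152). Of 18 macrophage and mast cell genes, 3 were called higher, near the share of all genes, and 1 lower, and 5 and 1 after the subtraction. The mast cell proteases Mcpt4 and Cma1 (both single) rose by 3.14 (SE 0.33) and 2.17 (SE 0.27), with 2.99 and 2.85 after the subtraction. Of 10 erythroid genes 1 was called higher and 3 lower, and 0 and 4 after the subtraction. Hbb-y, the beta-like globin of primitive red cells, read 12.37, 12.32 and 11.70 at E14.5, 8.29, 5.84 and 6.83 at E16.5 and a mean of 4.88 at E18.5, a decrease of 5.15 (SE 0.49, adjusted p 9.04e-09) that its second probe set shared at -5.20. Hbb-bh1, another embryonic globin, fell by 1.99 (SE 0.26), while Alas2 (single), the first enzyme of erythroid heme synthesis, rose by 3.29 (SE 0.41), with 0.05 after the subtraction. Of 18 endothelial genes 7 were called higher, among them Pecam1 (single) by 2.49 and Cdh5 by 2.47, and 2 lower; after the subtraction 0 were higher and 2 lower. Of 7 Merkel cell genes 0 were called higher and 4 lower, including Krt8, and 1 and 3 after the subtraction. Krt20 (single), a keratin of Merkel cells and gut, was another, at 7.90, 7.82 and 4.02 at E14.5 and 4.88 to 5.08 at E16.5, so its change of -1.57 was 0.99 without arrays 1 and 2, and it was not called when any skin array other than E14.5 array 3 was left out. Of 10 smooth muscle and pericyte genes 2 were called higher and 1 lower, near the shares of all genes, and 0 and 2 after the subtraction. The decrease was of Cnn1 (single), calponin of smooth muscle, at 6.76, 7.01 and 4.07 at E14.5 and 4.42 to 4.51 at E16.5, and its change of -1.49 was 0.38 without those arrays and not called without either of them. Of 13 adipocyte genes 3 were called higher and 0 lower, and 3 and 1 after the subtraction. Of 13 nerve and Schwann cell genes 2 were called higher and 0 lower, although their median change was -0.48. Of 10 cartilage and bone genes 2 were called lower. Both counts were near the shares of all genes, and 0 of either list were called after the subtraction. Immediate early and heat shock genes, which respond to stress and handling, showed no common direction, with a median change of -0.44. Of 11 measured, 5 were called higher and 0 lower, and 3 higher after the subtraction. The called increases included Ier2 (single) by 4.52, with 0.38 after the subtraction, and Junb (single) by 4.19, with 2.15.

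**Figure D5:**
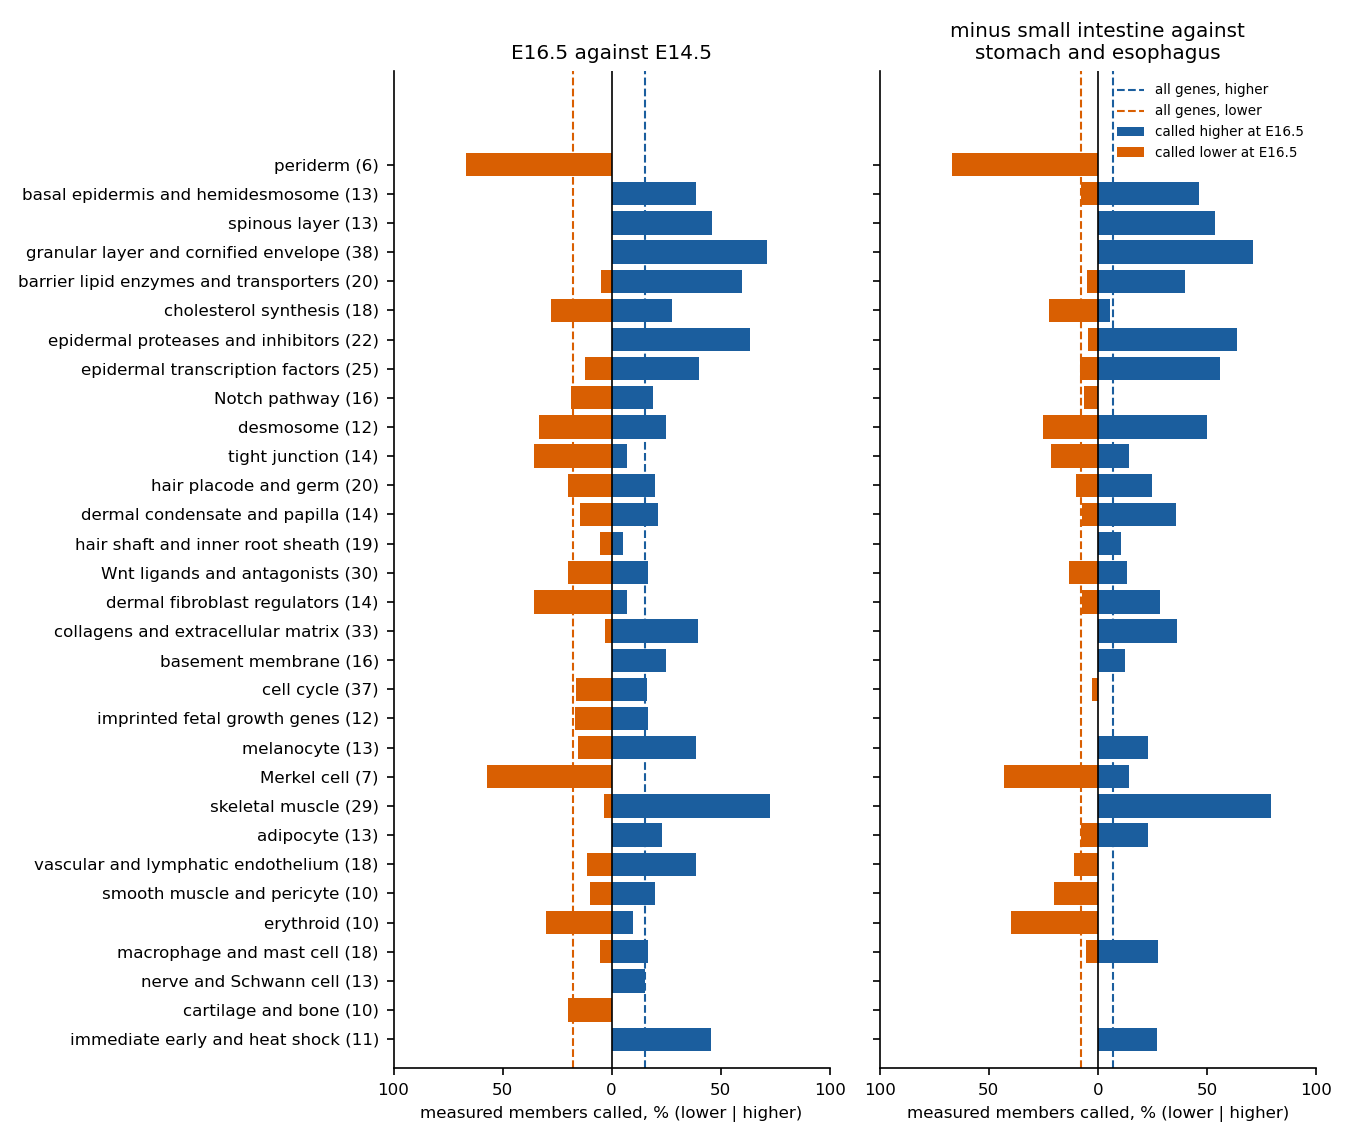
Share of the measured members of each gene list (number in brackets) called higher (to the right) or lower (to the left) at E16.5, before (left panel) and after (right panel) subtraction of the small intestine difference; dashed lines give the share of all genes, 15.1% and 17.5% on the left, 6.82% and 7.96% on the right. The granular layer, protease and skeletal muscle lists exceed the upper line in both panels, whereas cell cycle, Notch and endothelial bars to the right vanish in the right panel. The subtraction adds to genes lower in small intestine than in stomach and esophagus. Of these 3 lists, 10 of 38, 8 of 22 and 17 of 29 genes were called lower there, and 1, 5 and 1 higher.

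Proliferation genes lay at the background. Of 37 cell cycle genes, 6 were called higher and 6 lower, 14 had probe sets that disagreed, and after the subtraction 0 were higher and 1 lower. Mki67 (single), a nuclear marker of cycling cells, read 9.82, 9.71 and 9.84 at E14.5 and 10.63, 10.48 and 10.53 at E16.5, a difference of 0.76 (SE 0.25, adjusted p 0.0114) that was under 2-fold. Top2a, a topoisomerase of dividing cells, differed by 0.02 (SE 0.15, adjusted p 0.924). Ect2 (single) and Mcm4, of cytokinesis and of DNA replication, fell by 2.52 and 2.47, while Plk1 (single) and Rrm1, of mitosis and of nucleotide synthesis, rose by 2.24 and 1.88. Small intestine differed from stomach and esophagus by -2.05, -2.5, 2.71 and 1.88 in the same 4 genes. Imprinted fetal growth genes gave 2 called in each direction of 12, and 0 after the subtraction, with Peg10 (single) lower by 3.64 (SE 0.40) and Ndn by 2.07 (SE 0.25).

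The 10 largest increases on this scale, with at most 2 genes of a name stem, were Serpina12, 2310034C09Rik, Dsc1, Klk7, Ppp2r3d, Lce1b, Lce1m, Hoxa7, Flg and Cdsn, of which 9 were called after the subtraction. That count is no check on the array sets. Serpina12 and 2310034C09Rik read low in small intestine, stomach and esophagus, where a difference could hardly show. The subtraction raised the change of Serpina12, Dsc1, Lce1b, Lce1m, Hoxa7 and Flg and lowered that of the others. Serpina12, the serpin vaspin of skin and fat and an inhibitor of Klk7, read 5.18, 4.35 and 4.50 at E14.5 and 13.28, 14.13 and 14.13 at E16.5. It rose by 9.17 (SE 0.23, adjusted p 8.52e-18), its second probe set by 2.5, and it was at 4.59 to 5.28 in bladder at E14.5, esophagus, stomach and small intestine. 2310034C09Rik (single) rose by 8.48 (SE 0.28) and fell back to a mean of 5.10 at E18.5. Hoxa7 (single), a homeobox factor, read 6.24 to 6.31 at E14.5 and 13.19 to 13.32 at E16.5, and 5.84 to 6.51 as means of the first-set organs. Ppp2r3d (single), a phosphatase subunit, rose by 7.22, and small intestine exceeded stomach and esophagus in it by 6.24.

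The 10 largest decreases divided into 2 kinds. Afp, Apoa1, Ttr, Saa3 (single), Apom and Apoa4, plasma proteins of liver and yolk sac, were high on E14.5 arrays 1 and 2 only. Afp read 13.39, 13.24 and 6.5 at E14.5 and 4.00 to 4.71 at E16.5. Afp, Apoa1, Ttr, Apom and Apoa4 were not called without arrays 1 and 2 (Afp was, at -2.19, where the small intestine was also left out), and Saa3, at 5.87 on array 3, fell by 1.72 there and was still called. Map3k12, Thoc1, B4galt7 and E430024I08Rik were high on all 3 E14.5 arrays and read between 4.63 and 5.27 on the E16.5 arrays. Thoc1, a subunit of an mRNA export complex, read 11.73, 11.74 and 11.90 at E14.5 and 5.11, 4.94 and 5.06 at E16.5, a decrease of 6.75 (SE 0.12). With its probe set chosen as the brightest over the 6 skin arrays, Thoc1 instead changed by 0.49. Small intestine differed from stomach and esophagus by -6.28 in Thoc1, -5.54 in Map3k12, a kinase, -4.84 in B4galt7, a proteoglycan linker enzyme, and -6.17 in E430024I08Rik.

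Bladder was the other organ sampled at both ages, with 2 arrays at E14.5 and 3 at E16.5, all of the first set. The skin change exceeded or fell short of the bladder change in 5810 genes, 2566 higher in skin (14.1%) and 3244 lower (17.8%), in a limma interaction contrast under the same rule. Within bladder alone 38 genes were called higher (0.209%) and 12 lower (0.066%). The interaction holds the division of the skin arrays, which bladder lacks, so tissue and array set cannot be told apart in it. Of the cornified envelope list 0 genes were called in bladder, where so few genes were called that this count gives no contrast with skin. Hbb-y read 11.34 in bladder at E14.5 and 10.10 at E16.5, a difference that was not called there, and its skin change differed from that in bladder by -3.91 (SE 0.74).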

How the data were processed

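Gene expression of dorsal skin was measured on 3 E14.5 and 3 E16.5 Affymetrix arrays, in a table of 26. The deposited values are probe set intensities on a linear scale. PLIER 2.0 in Affymetrix Expression Console 1.1.1 is named in the submitters' processing notes; normalization between arrays and the genome build are not given in the sources used here. Of 45101 probe sets, 34958 carried 1 gene in the platform annotation, 932 several and 9211 none; only the first kind was used. Intensities plus 16 were log2-transformed and quantile-normalized, and the brightest probe set per gene by its mean over the table was fitted with limma 3.58.1 (lmFit, eBayes, two-sided) in R 4.3.3 over all 9 groups, with Benjamini-Hochberg adjustment over 18194 genes. Calls needed an adjusted p under 0.05, a 2-fold difference and, where there was one, a second-brightest probe set of the same sign.

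The number of arrays limits the precision. Gene lists and members were chosen with earlier results of these data known. Named were the 10 largest changes per direction among called genes with official symbols and arrays that do not overlap (at most 2 per symbol stem), up to 4 called members per list with the largest change and a set of well-known skin genes; other list members were named after their values were seen. The subtraction of the small intestine difference, the fit without small intestine and the liver and gut list were chosen after the arrays were seen. The replicate numbers of the 2 ages differ and pair nothing. The series' second table, of another array type, was not used here. Other settings were the normalization, pseudocount, probe set rule, filter on low values, arrays in the fit and each array left out.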

Additional observations from a re-analysis of the deposited data

Results flagged for a closer look

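The change of skin between the 2 ages differed from the bladder change in all 20 of the genes with the largest skin changes, by the limma interaction contrast. These genes were picked for a large skin change, and the skin ages lie in different array sets while the bladder ages share one, so tissue and array set cannot be told apart. The skin change minus the bladder change (log2) was 9.45 in Serpina12, 8.28 in 2310034C09Rik, 8.09 in Dsc1, 7.61 in Klk7, 7.58 in Ppp2r3d, 7.42 in Lce1m, 7.31 in Hoxa7, 7.07 in Lce1b, 6.86 in Cdsn and 6.42 in Flg. It was -7.01 in Map3k12, -6.88 in Thoc1, -5.19 in B4galt7 and -5.28 in E430024I08Rik, and -7.25 in Ttr, -6.42 in Apom, -5.89 in Afp, -5.82 in Apoa1, -5.50 in Saa3 and -5.37 in Apoa4, the 6 genes that were high on E14.5 arrays 1 and 2.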

How the results depend on the processing

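No paired analysis was possible because the arrays of the 2 ages share no replicate number. Leaving out each of the 6 skin arrays gave 2694 to 2807 genes called higher, 3080 to 3199 lower, 25 to 27 cornified envelope, 11 to 12 barrier lipid, 20 to 22 skeletal muscle, 12 to 14 matrix, 6 to 6 spinous, 3 to 4 placode genes in each direction, and 5 to 6 higher and 6 to 6 lower cell cycle genes; the interaction with bladder gave 5463 to 5842 genes over the 11 arrays. Of 213 counts under the other settings, 194 were within 1.5 times the value reported. The exceptions were as follows. A pseudocount of 1 left 2 placode genes lower, and one of 64 left 2090 genes lower. A 2-fold change of the second probe set left 2 placode and 3 cell cycle genes lower, and no condition on it gave 11 cell cycle genes lower. No fold limit gave 4790 genes lower and 10 cell cycle genes higher. Without E14.5 arrays 1 and 2, 3 spinous genes were higher. Subtracting the small intestine difference gave 1241 genes higher and 1449 lower, 2 placode genes lower, and 0 cell cycle genes higher and 1 lower; without small intestine array 3 it gave 1689 and 1917 genes, 2 placode genes lower, 0 and 1 cell cycle genes, and 13 spinous genes higher.

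Of 126 genes named with values, Dsg1b not among them, 18 that were called before or after the subtraction turned sign with it, to 0.60 in E430024I08Rik, -0.0854 in Itgb4, -0.38 in Fdps, -0.70 in Dll4, 0.051 in Hey2, 0.25 in Cxcr4, 1.51 in Twist1, 1.21 in Twist2, 0.0282 in Mcm4, -0.47 in Plk1, 0.59 in Ndn, -0.0559 in C1qa, -0.0064 in Cdh5, -0.97 in Slc27a4, 0.29 in Myf5, 3.22 in Myog, 1.34 in Tfap2c and 0.83 in Grhl2. Without small intestine array 3 the values were 0.52 in E430024I08Rik, -0.18 in Itgb4, -0.31 in Fdps, -0.89 in Dll4, 0.40 in Hey2, 0.68 in Cxcr4, 2.02 in Twist1, 1.40 in Twist2, 0.13 in Mcm4, -0.62 in Plk1, 1.03 in Ndn, -0.29 in C1qa, -1.46 in Slc27a4, 0.28 in Myf5, 3.43 in Myog, 2.09 in Tfap2c and 1.21 in Grhl2, and also -0.16 in Alas2 and 4.59 in Krt6a. Dsg1b, at -0.185 after the subtraction, was at 0.32 without small intestine array 3. Thoc1 was at 0.49 with the brightest probe set chosen over the 6 skin arrays, and also with normalization and fit over those 6 alone, and Grhl2 was at 0.0463 as the mean of its probe sets. The cause of these differences was not tested. Without E14.5 arrays 1 and 2, with or without the small intestine, Krt20 was at 0.992 and Cnn1 at 0.385. Every other setting kept the sign of each called gene of the 126 that it gave a value for. The filter on low values left some without one, and a few genes that were not called, such as Top2a and Ehf, changed sign near 0. Leaving out 1 array changed 15 of 756 calls, in Krt20, Cnn1, Tyrp1, Spink5, Lama3 and Myod1. Low readings near the floor of 4 have no order among themselves.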

Other observations

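Xist, which is expressed from the inactive X chromosome of females, read 11.15 and 11.26 on E14.5 arrays 1 and 2 and 4.92 on array 3, and 11.45, 4.92 and 11.59 on E16.5 arrays 6, 7 and 8. The Y-linked Kdm5d read 5.68, 5.68 and 8.43 on the E14.5 arrays and 4.15, 6.96 and 4.22 on the E16.5 arrays. Each age thus held 2 arrays of one pattern and 1 of the other. The difference between E14.5 arrays 1 and 2 had an SD of 0.372 (log2) over genes, against 0.593 and 0.546 between each of them and array 3, and 0.309 to 0.345 among the E16.5 arrays. Sftpc, a surfactant gene of lung, read 13.73 and 13.21 on E18.5 skin arrays 2 and 3 and 4.07 on array 1, and 4.00 to 7.15 on the 6 arrays of the younger ages.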
